A study of Homo sapiens with 118 samples.

Results

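The NRF2 oxidative stress targets followed here were NQO1, HMOX1, GCLC, GCLM, TXNRD1, SRXN1, SLC7A11, TXN and OSGIN1. They were matched by name: every row of the count table whose symbol, without the probe number, was 1 of these 9 genes was taken, whatever its values. This gave 12 of 22068 rows, or 9 of 19470 gene symbols, since NQO1, GCLM and OSGIN1 had 2 probes each. The cells were HepaRG, a human hepatic line used here after differentiation. TempO-Seq joins paired detector probes on the target RNA and counts the ligated product by sequencing. The cells had been exposed for 72 h, with the chemical renewed every day, to 1 of 8 histone deacetylase inhibitors at 5 concentrations, C1 to C5. There were 118 libraries in 40 groups, with replicates 1, 2 and 3 taken from 3 HepaRG batches, and only 2 libraries for panobinostat C3 and for trichostatin A C4.

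The ranges from C1 to C5 were 0.041722 to 0.86 µM for apicidin, 0.177222 to 3.9 µM for mocetinostat, 0.001468 to 0.084 µM for panobinostat and 4.94 to 94.5 µM for scriptaid. They were 1.143333 to 44 µM for tacedinaline, 0.018811 to 1.5237 µM for trichostatin A and 0.404778 to 23.5 µM for vorinostat. The labels of valproic acid ran from 100.478 to 3038, in a unit that the sources do not settle. Panobinostat, scriptaid, trichostatin A and vorinostat are hydroxamates, mocetinostat and tacedinaline are benzamides, apicidin is a cyclic tetrapeptide and valproic acid is a branched short-chain fatty acid. Their doses differed, so the values of the chemicals stand side by side and no pair of chemicals was compared. Solvent-control libraries were not used here, and C1 of the same chemical was the reference, so a change that C1 itself had caused is not visible here. Scriptaid, tacedinaline and vorinostat shared plate E and the other 5 chemicals plate H. The replicates were batches of 1 cell line, so p-values measure the spread between such batches.

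NRF2, the product of NFE2L2, is a transcription factor that KEAP1 holds in the cytoplasm and hands to the CUL3 ubiquitin ligase for degradation. Electrophiles and oxidants modify KEAP1, NRF2 then accumulates, pairs with a small MAF protein and binds antioxidant response elements near its target genes, while BACH1 competes for the same sites. The targets supply glutathione (SLC7A11, GCLC, GCLM), keep thioredoxin and peroxiredoxins reduced (TXN, TXNRD1, SRXN1), reduce quinones (NQO1) and degrade haem (HMOX1), and in liver they are known as markers of chemical stress.

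The promoters of the genes whose probes carried most of the calls are shown first, since GCLC and SRXN1 were called higher while GCLM and NQO1 were called lower. The stretches are those of RefSeq on GRCh38.p14 and hold the 250 bases before the annotated start and the first 10 after it, read along the gene. All 4 genes lie on the minus strand: GCLC at chr6:53545092-53545351, SRXN1 at chr20:653191-653450, GCLM at chr1:93909421-93909680 and NQO1 at chr16:69726551-69726810. Capitals mark matches to TGACNNNGC, the core of the antioxidant response element, or to its variant TGAGNNNGC, on either strand.
GCLC: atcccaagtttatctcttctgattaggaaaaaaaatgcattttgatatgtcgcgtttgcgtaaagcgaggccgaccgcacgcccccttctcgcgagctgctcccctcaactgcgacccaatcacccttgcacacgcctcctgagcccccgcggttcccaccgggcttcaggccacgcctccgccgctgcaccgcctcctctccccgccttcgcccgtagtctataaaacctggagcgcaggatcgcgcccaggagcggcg
SRXN1: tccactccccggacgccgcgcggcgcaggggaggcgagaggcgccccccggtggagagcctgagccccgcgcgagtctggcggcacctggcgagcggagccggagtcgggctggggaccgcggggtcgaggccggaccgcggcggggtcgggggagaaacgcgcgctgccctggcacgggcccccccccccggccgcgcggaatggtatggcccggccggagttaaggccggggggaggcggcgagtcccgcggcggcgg
GCLM: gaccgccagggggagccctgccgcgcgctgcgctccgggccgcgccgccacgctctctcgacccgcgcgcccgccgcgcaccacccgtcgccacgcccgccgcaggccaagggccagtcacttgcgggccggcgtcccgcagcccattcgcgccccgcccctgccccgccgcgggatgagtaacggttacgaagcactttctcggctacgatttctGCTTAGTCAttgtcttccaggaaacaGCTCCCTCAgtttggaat
NQO1: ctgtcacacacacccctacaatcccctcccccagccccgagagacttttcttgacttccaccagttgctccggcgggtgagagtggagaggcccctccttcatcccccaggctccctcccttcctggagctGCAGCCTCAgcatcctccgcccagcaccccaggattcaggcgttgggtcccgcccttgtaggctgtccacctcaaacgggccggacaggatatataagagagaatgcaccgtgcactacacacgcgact

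In these windows GCLM held TGACTAAGC from position -34 and TGAGGGAGC from position -8, and NQO1 held TGAGGCTGC from position -119, all on the strand opposite to the gene. Of the other members in the promoter table, OSGIN1 held TGAGTCAGC at -99 on the opposite strand. TXNRD1 had 2 annotated starts. The first held TGACTTCGC at -99 on the strand of the gene and TGACGGAGC at -8 on the opposite strand, and the second held TGAGCAGGC at -198 on the strand of the gene and TGACAAAGC at -102 on the opposite strand. No match lay in the windows of GCLC, SRXN1 and TXN, and HMOX1 and SLC7A11 were not in the table. Of 35116 windows of all genes, 13.3% held TGACNNNGC, 18.3% held TGAGNNNGC and 29.1% held either. A match is a description of these letters and not a site, and its absence here says nothing of more distant elements.

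The low-count filter kept 11 of the 12 rows in all 8 chemicals. The other, OSGIN1_21718, had 0 to 5 counts and lay at or under the floor of 3 counts in 114 of 118 libraries, so OSGIN1 is described by OSGIN1_4849. GCLC, GCLM, SRXN1 and TXNRD1 had at least 103 counts in every library. NQO1_4668 lay at or under 3 counts in 24 libraries and SLC7A11 in 21. Levels below are in CPM, the count of a probe relative to the scaled size of its library. Probes differ in efficiency, so levels are compared within a probe and not between probes.

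At C5 the 9 genes went in different directions. SRXN1 was called higher in 7 chemicals, GCLC in 5 and TXNRD1 in 2, and no other member was called higher. Both GCLM probes were called lower in 6 chemicals, NQO1_26473 and OSGIN1 in 4 each, NQO1_4668 and TXN in 2 each and SLC7A11 in 1, while HMOX1 was called in none. A call here is an adjusted p under 0.05 by edgeR's quasi-likelihood test, with Benjamini-Hochberg adjustment over all features of the comparison, and a fold change of at least 1.5. Over the 8 chemicals, 14 of 88 tests of members (15.9%) were called higher and 25 (28.4%) lower, beside 11.6% and 13.4% of all features. Each probe counts as 1 test, and GCLM and NQO1 entered with 2 probes each. The lower calls of these genes are thus partly counted more than once, while no gene called higher had 2 tested probes. The median log2 change of the members was -0.48, while the median of all features lay between -0.0018 and 0.084.

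**Figure D1:**
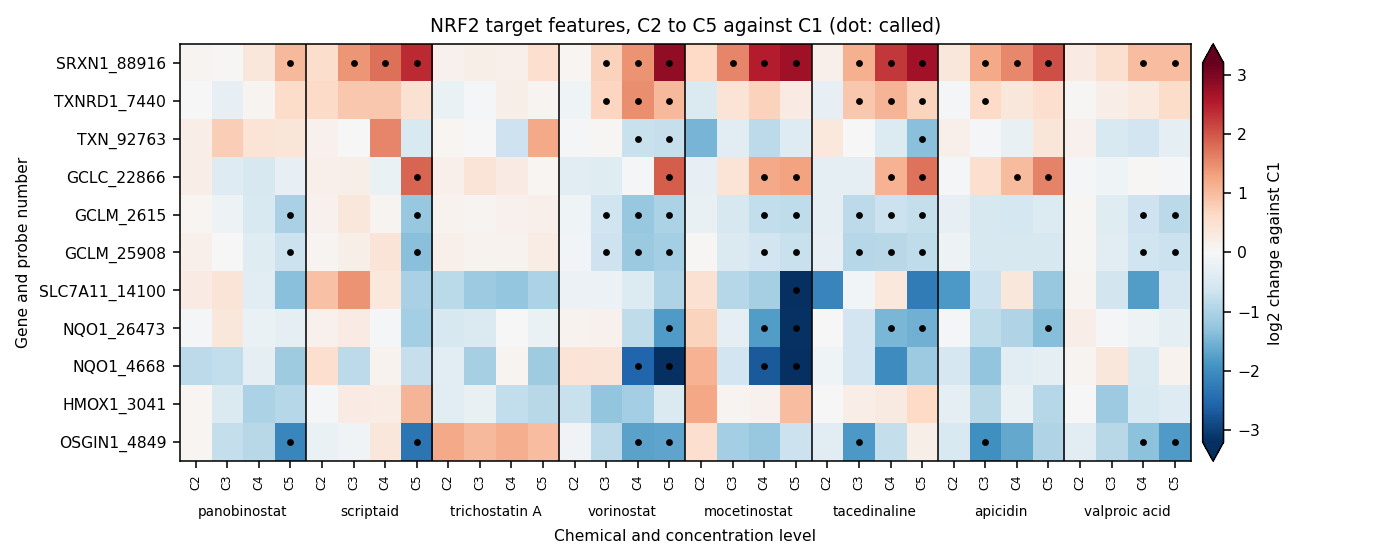
Heat map of the log2 change against C1 (colour) of the 11 tested NRF2 target features (rows) at C2 to C5 of each of the 8 chemicals (columns); a dot marks a call. Dots mark higher levels for SRXN1, GCLC and TXNRD1 and lower levels for GCLM, NQO1, OSGIN1, TXN and SLC7A11, and trichostatin A has none.

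By chemical, and again counted by probe, vorinostat had the most member calls at C5, with 3 higher and 6 lower of 11 (all features 22.7% higher and 24.9% lower). Tacedinaline had 3 and 4 (18.7% and 20.1%), mocetinostat 2 and 5 (14.8% and 15.7%), and scriptaid 2 and 3 (12.8% and 17%). Panobinostat had 1 and 3 (6.77% and 9.46%), valproic acid 1 and 3 (4.84% and 6.22%), and apicidin 2 and 1 (13.8% and 15%). In trichostatin A 0 members were called, where 4 had an unadjusted p under 0.05, beside 0% and 0.0154% of all features, and DESeq2 called 0 members too. That background depended on replicate 3. Without its C1 library 21 of all 12878 features were called higher and 83 lower. Without replicate 3 at any concentration 102 of 12675 were higher and 182 lower, still with 0 members. Lower concentrations gave fewer calls. At C2 there were 0 over the chemicals, with 8 at an unadjusted p under 0.05 and 0.0659% and 0.0206% of all features called. At C3 there were 8 higher and 6 lower (2.82% and 3.16%), and at C4 there were 11 and 15 (7.85% and 8.14%). A linear trend on log2 concentration called 15 higher and 26 lower (12.7% of all features in each direction).

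Hepatocyte markers were lower at C5 in the chemicals other than trichostatin A. Of 104 tests of 13 probes for 12 hepatocyte markers (albumin, apolipoproteins, CYP3A4 and others), 85 were called lower at C5 and 0 higher, and in the chemicals other than trichostatin A their summed level was 36506 to 58330 CPM over the C1 libraries and 3162 to 27673 CPM over the C5 libraries. In trichostatin A no hepatocyte marker was called, and the sum was 12247 to 50255 CPM at C1, where the lowest value was that of replicate 3, and 34361 to 43016 CPM at C5. Cholangiocyte and progenitor markers summed to 64.8 to 149 CPM at C1 and 62.7 to 215 CPM at C5, with 11 of 33 tests called higher. Of stromal markers 7 of 64 tests were called higher and 27 lower. Blood and immune markers had 0 of 24 tests higher and 3 lower (12.5%), and endothelial markers 0 of 10 higher and 1 lower (10%). Of all features 11.6% were called higher and 13.4% lower at C5. The lower shares of blood, immune and endothelial markers were near that of all features, but they rest on few tests. Total counts per library lay between 1061359 and 5250260, and the mean of vorinostat was 3038900 at C1 and 1485590 at C5. In 7 libraries the mean correlation with the group mates was 0.794 to 0.899. These were apicidin C4 replicate 1, mocetinostat C2 replicate 3 and C3 replicate 1, panobinostat C2 replicate 2, scriptaid C4 replicate 3, trichostatin A C1 replicate 3 and valproic acid C4 replicate 3. The part of markers and depth in the changes of the members was not tested, and in lysates of whole wells fewer cells of a type and less RNA per cell cannot be told apart.

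SRXN1 encodes sulfiredoxin, which repairs over-oxidised peroxiredoxins, and it was the member called in the most chemicals. In vorinostat its level was 156, 136 and 168 CPM in the 3 C1 libraries and 1026, 1157 and 1120 CPM at C5. Tacedinaline went from 146, 145 and 177 CPM to 936, 1079 and 986 CPM, and mocetinostat from 96.6, 130 and 125 CPM to 687, 757 and 880 CPM. Every C5 library of these 3 chemicals lay above every C1 library, and the log2 changes were 2.84 ± 0.15 (SE, n = 3 per group), 2.68 ± 0.14 and 2.72 ± 0.21, with edgeR adjusted p-values of 3.3e-17, 8.5e-20 and 9e-08.

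Scriptaid had 149, 147 and 133 CPM of SRXN1 at C1 and 868, 908 and 450 CPM at C5, where replicate 3 was the lowest. Apicidin had 97.6, 136 and 134 CPM at C1 and 521, 559 and 448 CPM at C5. Their log2 changes were 2.38 ± 0.27 and 2.06 ± 0.16 (edgeR adjusted p = 4.6e-06 and 6.9e-09). The changes in panobinostat and valproic acid were smaller. Panobinostat had 102, 136 and 116 CPM at C1 and 199, 262 and 271 CPM at C5, a log2 change of 1.05 ± 0.17 (edgeR adjusted p = 0.00011). Valproic acid had 103, 106 and 88.9 CPM and then 165, 211 and 213 CPM, a log2 change of 0.98 ± 0.17 (edgeR adjusted p = 0.00052). In trichostatin A SRXN1 was 106, 96.2 and 95 CPM at C1 and 123, 175 and 136 CPM at C5. The groups did not overlap there either, but the log2 change of 0.55 ± 0.19 did not pass the test (edgeR adjusted p = 0.39).

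The level of SRXN1 moved with concentration over most of the range. It was called higher at C3 in 5 chemicals (apicidin, mocetinostat, scriptaid, tacedinaline and vorinostat) and at C4 in these and in valproic acid. In mocetinostat the group means from C1 to C5 were 117, 183, 346, 665 and 775 CPM of SRXN1. In vorinostat they were 153, 160, 256, 412 and 1101 CPM, so the step from C4 to C5 was the longest there. In panobinostat SRXN1 stayed between 118 and 152 CPM up to C4 and was called at C5 only.

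**Figure D2:**
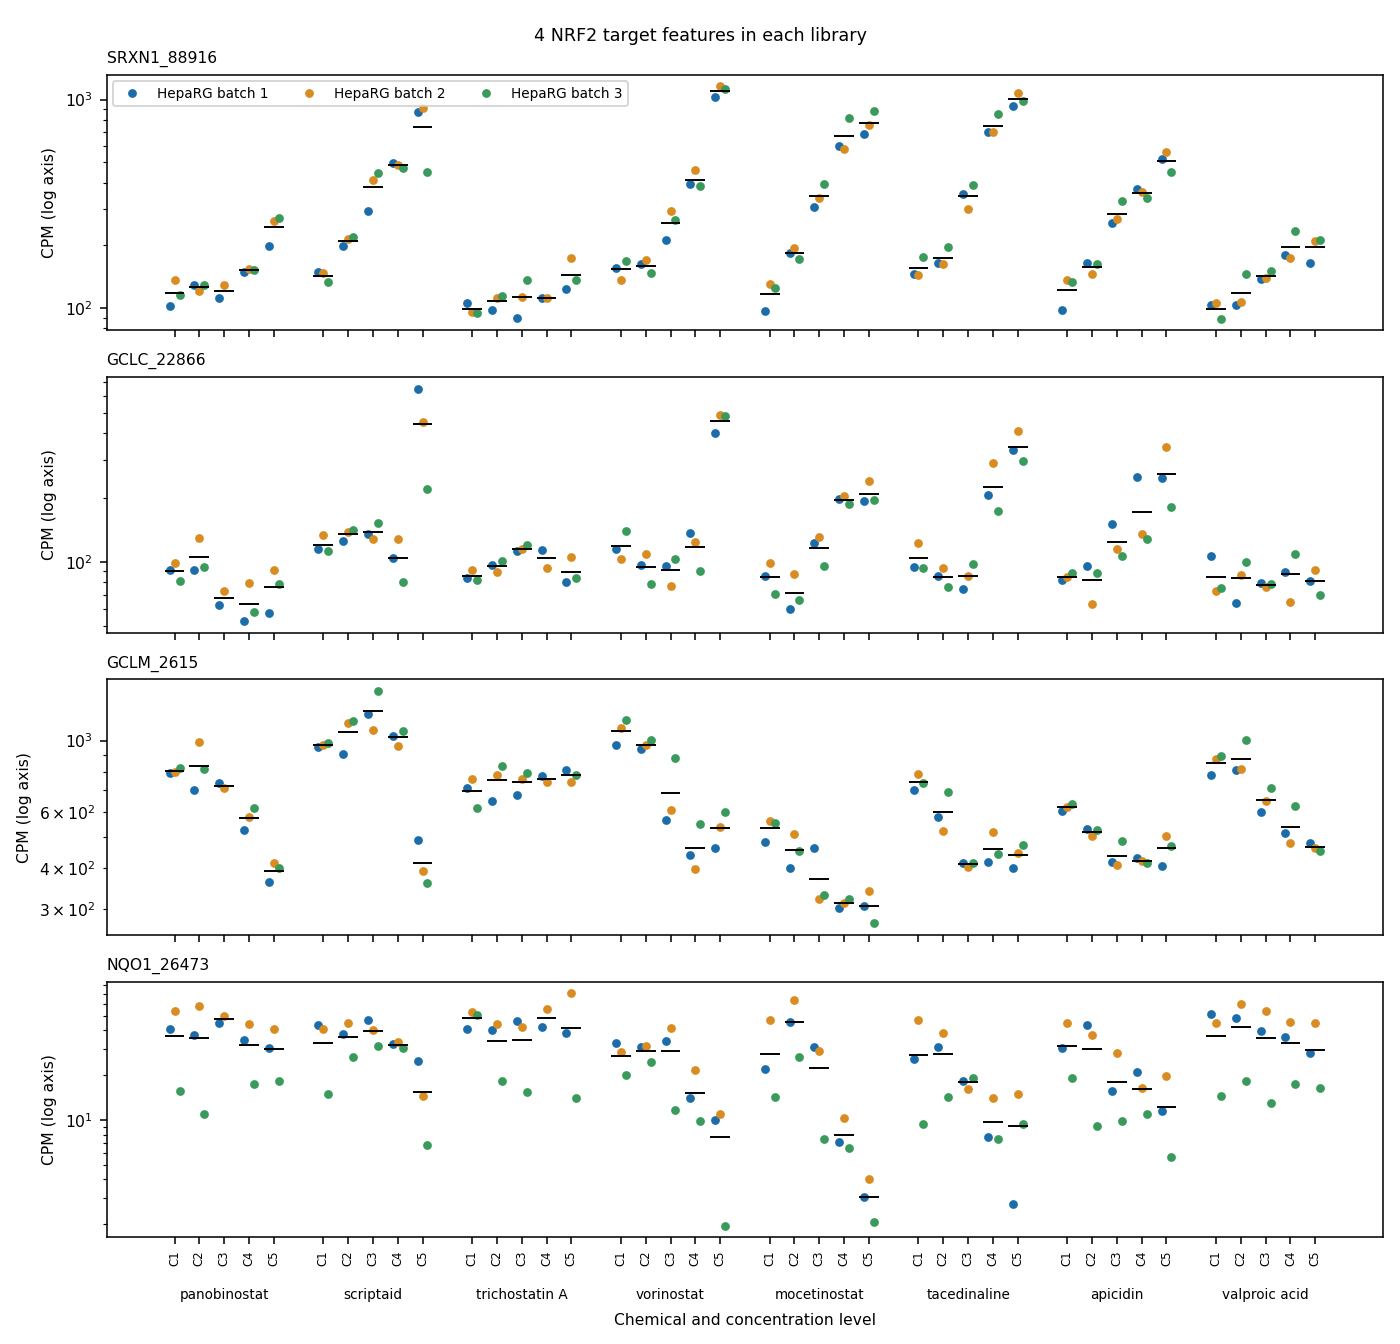
Level (CPM, log axis) of SRXN1_88916, GCLC_22866, GCLM_2615 and NQO1_26473 in every library, by chemical and concentration; colours are the 3 HepaRG batches and a bar marks each group mean. SRXN1 reaches group means of 742 to 1101 CPM at C5 of scriptaid, mocetinostat, tacedinaline and vorinostat, against 145 CPM in trichostatin A, and NQO1_26473 of batch 3 lies under the other batches in most groups.

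TXNRD1 encodes the cytosolic thioredoxin reductase, which passes electrons from NADPH to thioredoxin. In vorinostat it was 242, 180 and 277 CPM at C1, 656, 696 and 613 CPM at C4 and 494, 451 and 488 CPM at C5. In tacedinaline it was 278, 231 and 315 CPM at C1, 563, 568 and 614 CPM at C4 and 438, 457 and 447 CPM at C5. All C4 and C5 libraries lay above the C1 libraries in both, and the mean was higher at C4 than at C5. The log2 changes were 1.49 (C4) and 1.04 ± 0.18 (C5, edgeR adjusted p = 1.4e-05) in vorinostat and 1.08 and 0.70 ± 0.16 (edgeR adjusted p = 0.00041) in tacedinaline. At C3 TXNRD1 was called higher in apicidin, tacedinaline and vorinostat (log2 changes 0.62 to 0.86). At C5 apicidin and valproic acid passed the test with log2 changes of 0.53 and 0.58, under the minimum fold, and the others had values of 0.09 to 0.58. With the batch as a block panobinostat was called too (0.60, edgeR adjusted p = 0.0328), and without replicate 2 tacedinaline passed at 0.57, under the minimum fold. In 1 model over all groups tacedinaline did not pass (edgeR adjusted p = 0.102). Scriptaid C4 replicate 3, the library that stood apart, held 148 CPM of TXNRD1 while its mates held 616 and 665 CPM, and without the libraries that stood apart scriptaid C4 was called (log2 change 1.24, edgeR adjusted p = 0.0026).

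TXN encodes thioredoxin, the substrate of that reductase. Its level in tacedinaline was 27.5, 34.2 and 14 CPM at C1 and 13.1, 6.4 and 10.4 CPM at C5, and in vorinostat 29.9, 38.2 and 25.1 CPM and then 20.1, 12.6 and 24.1 CPM. Both sets of groups were apart. TXN was called lower in both, with log2 changes of -1.35 ± 0.39 and -0.74 ± 0.30 (edgeR adjusted p = 0.0043 and 0.037). Without replicate 2 neither call of TXN remained (log2 changes -0.75 and -0.30, edgeR adjusted p = 0.238 and 0.540), and without replicate 1 that of vorinostat did not (-0.84, edgeR adjusted p = 0.0947). In 1 model over all groups TXN in vorinostat was not called either (edgeR adjusted p = 0.226). In trichostatin A 1 C5 library held 90.8 CPM of TXN while the other libraries held 13.9 and 21.6 CPM, and the log2 change of 1.22 was not called (edgeR adjusted p = 0.47).

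GCLC and GCLM encode the catalytic and the modifier subunit of glutamate-cysteine ligase, the first enzyme of glutathione synthesis, and they went apart. GCLC was called higher at C5 in 5 chemicals. In vorinostat it was 114, 103 and 140 CPM at C1 and 401, 490 and 485 CPM at C5, and in tacedinaline 94.9, 122 and 93.5 CPM and then 334, 410 and 296 CPM. Scriptaid went from 114, 134 and 113 CPM of GCLC to 649, 454 and 219 CPM, the widest spread of these groups. The log2 changes were 1.95 ± 0.17, 1.74 ± 0.18 and 1.87 ± 0.31 (edgeR adjusted p = 3.4e-11, 8.7e-11 and 0.00018).

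Apicidin had 82.3, 85.2 and 88.1 CPM of GCLC at C1 and 247, 344 and 182 CPM at C5 (log2 change 1.60 ± 0.26, edgeR adjusted p = 7.3e-05). Mocetinostat had 85.9, 98.2 and 70.7 CPM and then 193, 239 and 194 CPM (1.30 ± 0.21, edgeR adjusted p = 0.00024). In these chemicals the C5 libraries lay above all C1 libraries. In panobinostat, trichostatin A and valproic acid the groups overlapped, with log2 changes of -0.26 ± 0.21, 0.06 ± 0.17 and -0.07 ± 0.21. At C4 GCLC was called in apicidin, mocetinostat and tacedinaline (log2 changes 1.01 to 1.20), whereas in vorinostat its C4 mean was 117 CPM, beside 119 CPM at C1 and 459 CPM at C5.

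GCLM had 2 probes, whose centred group means correlated with r = 0.98 over the 40 groups. In panobinostat GCLM_2615 was 793, 797 and 822 CPM at C1 and 364, 416 and 403 CPM at C5. In valproic acid it was 779, 879 and 894 CPM and then 481, 463 and 452 CPM, and in vorinostat 967, 1094 and 1159 CPM and then 462, 540 and 599 CPM. The C5 libraries lay below all C1 libraries in each, and the log2 changes of GCLM_2615 were -1.03, -0.87 and -1.01 (edgeR adjusted p = 2.8e-05, 0.00012 and 1.2e-06). Over the 6 chemicals with calls the level was 1.68 to 2.34 times lower by GCLM_2615 and 1.61 to 2.54 times lower by GCLM_25908. Apicidin passed the test with both probes (-0.43 and -0.52), under the minimum fold. In scriptaid GCLM_2615 was 955, 969 and 983 CPM at C1, 1213, 1075 and 1427 CPM at C3 and 490, 393 and 362 CPM at C5, so its fall lay between C4 and C5. Several GCLM calls were not made with a batch left out, which leaves fewer libraries per group. Those of mocetinostat were not made without replicate 2 or 3 (edgeR adjusted p = 0.0529 to 0.0931 over both probes), those of scriptaid without replicate 2 (0.0579 and 0.0529), and those of GCLM_25908 in panobinostat and valproic acid without replicate 1 (0.0586 and 0.0988). With each batch left out in turn, the log2 change of GCLM_2615 was -0.933 to -0.700 in mocetinostat and -1.398 to -1.135 in scriptaid. In trichostatin A the changes of 0.16 and 0.23 did not pass the test (edgeR adjusted p = 0.79 and 0.67).

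The ratio of GCLC to GCLM counts within a library does not depend on how libraries are scaled, and only its change has a meaning, since the probes differ. With GCLM_2615 it was 0.111 ± 0.015 (mean ± SD, n = 3) at C1 of vorinostat and 0.862 ± 0.049 at C5, 7.81 times higher (factors here are between means of log2 ratios). In scriptaid the mean was 0.124 at C1 and 1.03 at C5 (7.89 times), in tacedinaline 0.139 and 0.790 (5.63 times), in mocetinostat 0.160 and 0.685 (4.32 times) and in apicidin 0.137 and 0.557 (3.95 times). In panobinostat and valproic acid the ratio was 1.68 and 1.75 times higher, in both through a lower GCLM with GCLC not called. In these 7 chemicals every C5 library lay above every C1 library, and the exact two-sided permutation p was 0.1, the smallest that 3 against 3 libraries allow, or 0.114 after adjustment over the 8 chemicals. In trichostatin A the ratio was 0.924 times that of C1, and the groups overlapped (exact permutation p = 0.5). With GCLM_25908 the panobinostat groups overlapped (exact permutation p = 0.2) and those of trichostatin A did not, at 0.888 times the C1 ratio.

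**Figure D3:**
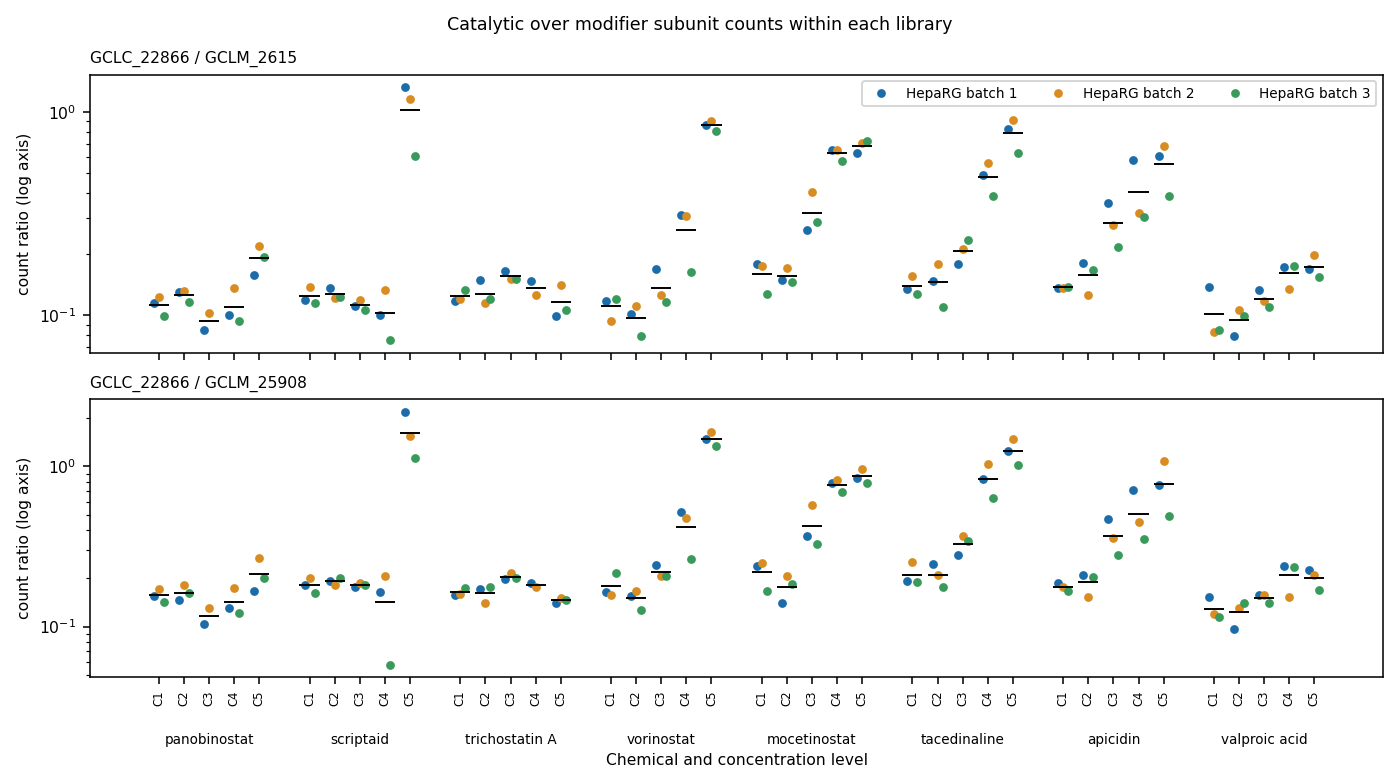
Ratio of GCLC counts to GCLM counts (log axis) in each library at C1 to C5 of each chemical, for each of the 2 GCLM probes; points are libraries, coloured by HepaRG batch, and bars are group means. The mean with GCLM_2615 goes from 0.111 to 0.862 in vorinostat and from 0.124 to 1.03 in scriptaid, and stays at 0.124 and 0.116 in trichostatin A.

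SLC7A11 encodes the cystine carrier of the exchanger that feeds glutathione synthesis, and it was measured near the floor. In mocetinostat it had 4, 16 and 15 counts at C1 and 1, 0 and 0 counts at C5. Of the summed counts, 35 at C1 and 1 at C5, the ratio after scaling was 30.7, with a 95% interval of 5.15 to 1246 that covers counting error only (edgeR adjusted p = 0.018). The call did not pass without replicate 2 or 3 (edgeR adjusted p = 0.20 and 0.108). Vorinostat had 6, 31 and 39 counts of SLC7A11 at C1 and 0, 21 and 0 at C5, and was not called. In no chemical was SLC7A11 called higher.

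NQO1 encodes the quinone reductase whose induction is a standard readout of NRF2, and it was called higher nowhere. With NQO1_26473 mocetinostat went from 22, 46.8 and 14.2 CPM at C1 to 3.06, 4.04 and 2.07 CPM at C5, and vorinostat from 32.7, 28.6 and 19.9 CPM to 10, 11 and 1.96 CPM. The groups were apart in both, with log2 changes of -3.16 ± 0.59 and -1.80 ± 0.45 (edgeR adjusted p = 0.00066 and 0.0012). Tacedinaline had 25.7, 46.9 and 9.43 CPM at C1 and 2.72, 15 and 9.45 CPM at C5, and apicidin 30.6, 44.7 and 19.2 CPM and then 11.5, 19.8 and 5.64 CPM. Their groups overlapped. They were called lower with log2 changes of -1.54 ± 0.47 and -1.36 ± 0.51 (edgeR adjusted p = 0.0069 and 0.048). The change was downward in 2 of 3 batches in tacedinaline and in every batch in apicidin. With the batch as a block the log2 changes were -1.44 ± 0.43 and -1.42 ± 0.32 (edgeR adjusted p = 0.0057 and 0.0024). Without the block, neither chemical was called when replicate 1 or 2 was left out (edgeR adjusted p = 0.0758 to 0.106). In scriptaid NQO1_26473 passed the test once the batch was a block (log2 change -1.10, edgeR adjusted p = 0.0239, against 0.063 without it). The values in panobinostat, trichostatin A and valproic acid were -0.30, -0.22 and -0.30, not called. At C4 the probe was called lower in mocetinostat and tacedinaline (-1.80 and -1.45) and, with the batch as a block, in apicidin and vorinostat (-0.92 and -0.84, edgeR adjusted p = 0.0432 and 0.0471).

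The other probe, NQO1_4668, had few counts. In mocetinostat it had 15, 31 and 7 counts at C1 and 0 in all 3 libraries at C5, at least 4.95-fold lower when C5 is set to 3 counts per library (edgeR adjusted p = 0.0017, or 0.0604 without replicate 2). In vorinostat its summed counts were 59 at C1 and 2 at C5, a ratio of 15.4 with a 95% interval of 4.08 to 130 for counting error (edgeR adjusted p = 0.0019). Both probes were thus called lower in these 2 chemicals.

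NQO1 also differed between HepaRG batches. In 35 of the 38 groups with 3 libraries, NQO1_26473 was lowest in batch 3. At C1 its median over the 8 chemicals was 36.7, 45.8 and 15.2 CPM in batches 1, 2 and 3. Batch 3 lay below the mean of the other batches by a log2 difference of -1.11 ± 0.18 over the 24 C1 libraries (edgeR adjusted p = 0.00497), where 0.129% of 13139 features were called lower. Trichostatin A C1 replicate 3, which stood apart, held 50.6 CPM against 9.43 to 19.9 CPM in the other C1 libraries of batch 3. Without it the difference was -1.34 ± 0.15 (edgeR adjusted p = 3.4e-08, with 0.298% of features called lower). No other member passed this test in either setting.

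**Figure D4:**
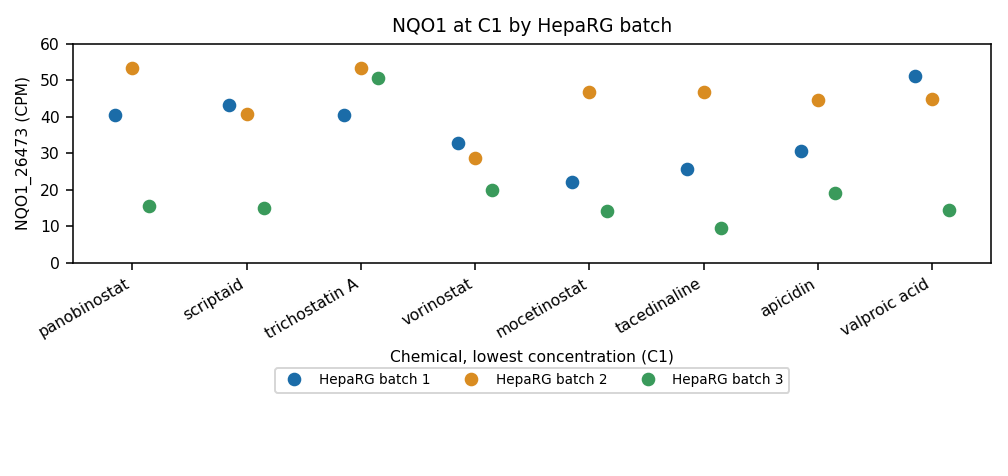
Level (CPM, linear axis from 0) of NQO1_26473 in the 24 C1 libraries, by chemical; each point is 1 library and colours are the HepaRG batches. In 7 chemicals the batch 3 library lies at 9.43 to 19.9 CPM, and that of trichostatin A lies at 50.6 CPM.

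HMOX1 encodes haem oxygenase, which breaks down haem, and was called at C5 in no chemical, with log2 changes from -0.92 to 1.1. In mocetinostat HMOX1 was 13.5, 15.6 and 26.9 CPM at C1 and 35.9, 43.5 and 31.4 CPM at C5. The groups were apart, but the log2 change of 0.99 did not pass the test (edgeR adjusted p = 0.074). In scriptaid HMOX1 was 17.6, 13.3 and 15.8 CPM at C1 and 47.1, 41.6 and 10.4 CPM at C5, so that replicate 3 lay below the C1 libraries and its mates above them. Mocetinostat C2 held 59.8, 52.5 and 19.4 CPM of HMOX1, the last in the library that stood apart. Without the libraries that stood apart mocetinostat was called at C2 (1.49, edgeR adjusted p = 0.00046) and at C5 (0.93, edgeR adjusted p = 0.0108). The trend was called in panobinostat, where HMOX1 went from a mean of 11.4 CPM at C1 to 6.05 CPM at C5 (fitted log2 change -1.15 ± 0.34, edgeR adjusted p = 0.0197, with 9.35% of all features called lower).

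OSGIN1, an oxidative stress-induced growth inhibitor and NRF2 target, was called lower at C5 in 4 chemicals. In scriptaid OSGIN1_4849 was 37.4, 37.6 and 26.2 CPM at C1 and 3.62, 7.89 and 8.33 CPM at C5, and in panobinostat 17.3, 18.8 and 24.3 CPM and then 3.55, 7.02 and 3.46 CPM. In valproic acid it went from 27.8, 17.9 and 25.3 CPM to 6.09, 7.58 and 6.72 CPM, and in vorinostat from 24.7, 21.8 and 29.9 CPM to 5.47, 12.6 and 4.56 CPM. The groups were apart in all 4, with log2 changes of -2.34 ± 0.39, -2.08 ± 0.38, -1.80 ± 0.41 and -1.69 ± 0.42 (edgeR adjusted p = 0.00019, 0.0005, 0.0052 and 0.0011). The call of valproic acid was not made without replicate 1 (-1.59, edgeR adjusted p = 0.206). At C4 OSGIN1 was called lower in valproic acid and vorinostat and, with the batch as a block, in apicidin (-1.76, edgeR adjusted p = 0.0354). OSGIN1 was thus lower in panobinostat and valproic acid, where GCLC was not called. Tacedinaline, with 7 member calls, had an OSGIN1 change of 0.18, not called at C5, although its C3 was called lower (4.43, 17 and 13.5 CPM at C1 and 1.74, 2.71 and 6.17 CPM at C3, in overlapping groups). In trichostatin A, C1 replicate 3 held 2.54 CPM of OSGIN1 against 15.6 and 13.9 CPM in its mates, and the change of 0.99 was not called.

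The change from C1 to C5 was then tested for a difference among the 8 chemicals in 1 model, which compares the concentration ranges as tested. Of the 11 features 8 passed, beside 30.3% of all 15632 features. They were SRXN1, GCLC, both GCLM probes, OSGIN1, HMOX1 and both NQO1 probes. TXN (edgeR adjusted p = 0.0688), SLC7A11 (0.521) and TXNRD1 (0.703) did not pass. The calls of TXNRD1 in 2 chemicals are therefore not shown to set these apart from the others. HMOX1 passed although it was called in no chemical at C5, but it did not pass without replicate 1 or 2 (adjusted p = 0.270 and 0.257). Both NQO1 probes also failed without replicate 1 or 2 (adjusted p = 0.175 to 0.545), and NQO1_4668 failed without replicate 3 (0.0550), where TXN passed (0.0290). SRXN1, GCLC, both GCLM probes and OSGIN1 passed with each replicate left out. Of all features, 2902 of 16261 passed without replicate 1, 2486 of 16312 without replicate 2 and 3777 of 15261 without replicate 3. Within plate H 7 features passed, without HMOX1 (edgeR adjusted p = 0.0815), beside 3475 of all 14844 features. Within plate E 1 passed, OSGIN1_4849 (edgeR adjusted p = 0.0200), where far fewer of all features passed too, 430 of 13643. Without trichostatin A 7 passed, as NQO1_26473 no longer did (edgeR adjusted p = 0.0635), beside 3301 of all 15547 features.

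Of 87 tests of 12 NRF2 regulators and partners 9 were higher and 13 lower (10.3% and 14.9%), beside 11.6% and 13.4% of all features. NFE2L2 itself was called in none of the 8 chemicals, with log2 changes from -0.36 to 0.39. Its means in vorinostat were 364 CPM at C1 and 418 CPM at C5. KEAP1, which marks NRF2 for degradation, was called lower in vorinostat (from a mean of 13.8 to 2.09 CPM, log2 change -2.54 ± 0.59, edgeR adjusted p = 0.00055), valproic acid (-1.35) and scriptaid (-1.25). In the C5 libraries of vorinostat the floor of 3 counts was 2.09 CPM on average. The KEAP1 mean lay at that floor, so the size of its fall there is uncertain. BACH1, the competing repressor, was called lower in tacedinaline alone (-0.83 ± 0.33, edgeR adjusted p = 0.038). MAFK, a small MAF partner, was called higher in 5 chemicals, in each of which GCLC was called too, from 180 to 488 CPM in vorinostat and from 151 to 472 CPM in mocetinostat (log2 changes 1.44 ± 0.15 and 1.65 ± 0.22). SQSTM1, the autophagy receptor that binds KEAP1, was called higher in mocetinostat, scriptaid, tacedinaline and vorinostat (0.72 to 1.36) and lower in apicidin (-0.79). EP300, an acetyltransferase that acts with NRF2, was called lower in 5 chemicals.

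Other genes of the NRF2 and glutathione systems were called lower more often than higher, and the list of hepatocyte markers moved in the same chemicals. Of 192 tests of other detoxification targets 16 were higher and 73 lower (8.33% and 38.0%), and of 196 tests of glutathione genes 11 were higher and 66 lower (5.61% and 33.7%), beside 11.6% and 13.4% of all features. The carrier ABCC2, by both probes, and the enzymes UGDH and EPHX1 were called lower in 7 chemicals each, all but trichostatin A. The carrier ABCC3 was called lower in 7 by ABCC3_26788, in 6 by ABCC3_38 and in 4 by ABCC3_23353. ABCC2_22 went from 230 to 5.92 CPM in vorinostat (log2 change -5.22 ± 0.33). The glutathione enzymes GPX2 (by GPX2_2766) and GSTA1 were called lower in the same 7, with GSTA1 going from 1063 to 33.9 CPM in tacedinaline. GSTA2 was called lower in 7 by GSTA2_2817 and in 0 by GSTA2_17119, whose median log2 change was 0.24, and MGST2 in 7 by MGST2_27509 and in 5 by each of its other probes. GSTA1 and GSTA2 are near-identical paralogs, so their counts may not be fully separate.

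Of 88 tests of thioredoxin and peroxiredoxin partners 19 were called higher and 17 lower (21.6% and 19.3%, beside 11.6% and 13.4% of all features). PRDX1, a peroxiredoxin of the kind that sulfiredoxin repairs, was called higher in 6 chemicals, from 98.3 to 1011 CPM in vorinostat (3.37 ± 0.17) and from 117 to 250 CPM in panobinostat (1.1 ± 0.20). TXNIP, which binds and inhibits thioredoxin, was called higher in 7 (1.55 to 2.75). TXNRD2, the mitochondrial reductase, was called lower in 6 and the sestrin SESN1 in 5. Of genes that remove superoxide and peroxide 20 of 48 tests were lower and 2 higher (41.7% and 4.17%). CAT was called lower in 6 chemicals, and SOD2 in 6 by SOD2_6667 and in 5 by SOD2_22842. Among targets of ATF4, a stress factor that also acts on SLC7A11, 8 of 79 tests were higher and 13 lower (10.1% and 16.5%), near the shares of all features. By gene, TRIB3 was called lower in 7 chemicals and SLC3A2, the partner chain of SLC7A11, in 4, while ASNS was called higher in 4.

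**Figure D5:**
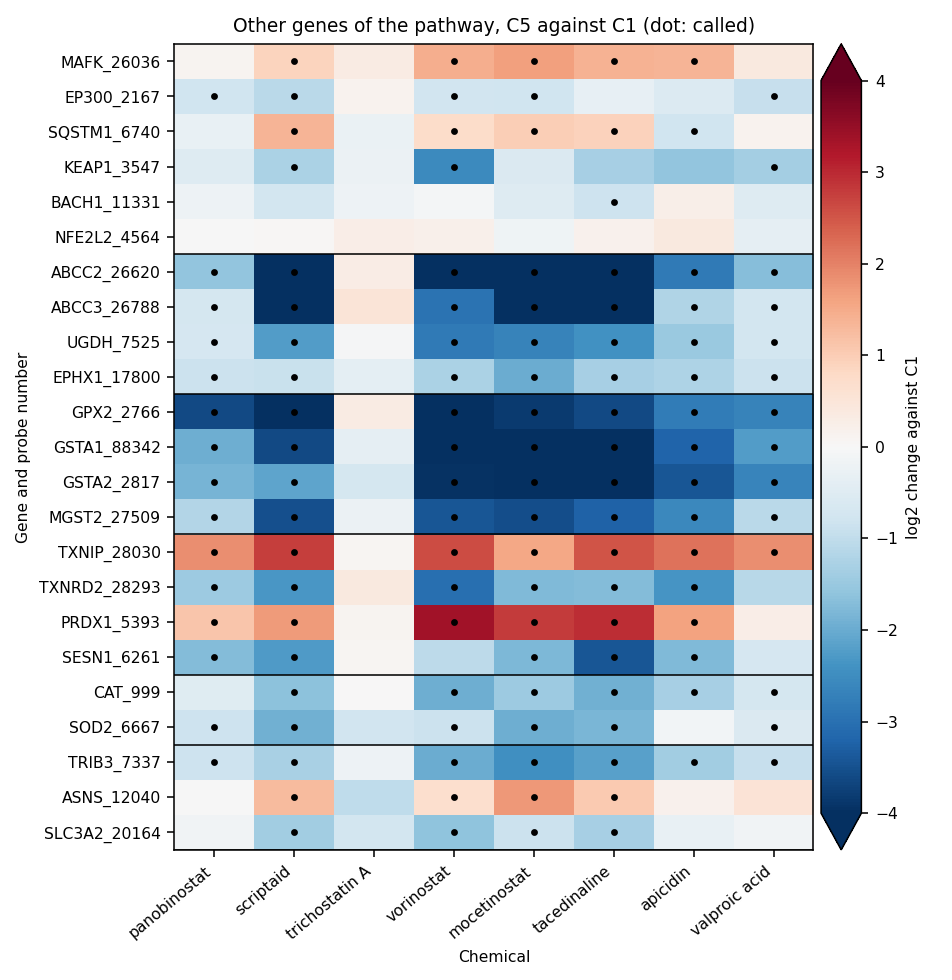
Log2 change from C1 to C5 (colour) of the named genes of the NRF2 regulator, detoxification, glutathione, thioredoxin, superoxide and ATF4 lists (rows) in the 8 chemicals (columns); a dot marks a call, and the colour scale ends at 4 in either direction. PRDX1, TXNIP and MAFK are higher in 5 to 7 chemicals, ABCC2, GSTA1 and TRIB3 are lower in 7, and NFE2L2 has no dot.

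Likeness of pattern was measured as Pearson's r over the 40 group means of log2 CPM, centred within each chemical, among 11288 features tested in all chemicals. The points share libraries and concentration series, so r is a description. Nearest to SRXN1 were MT2A (0.98), a metallothionein, HABP4 (0.97) and ARG2 (0.96). Nearest to GCLC were ODC1 (0.92), HDAC3 (0.92) and MAFK (0.91), and among those nearest to GCLM_2615 were MDFIC (0.94) and STAG1 (0.94). NQO1_26473 was most like CLMP (0.94), DERA and RAB27A (0.93 each), and TXNRD1 most like SRI (0.92). HMOX1 had the weakest neighbours, DRAXIN (0.73), EDRF1 (0.72) and HEXIM1 (0.67). Among the members, GCLC and SRXN1 had r = 0.78, and OSGIN1 and GCLM_2615 had 0.85. GCLM_2615 ran against SRXN1 (-0.75) and GCLC (-0.52), and GCLC against NQO1_26473 (-0.85).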

How the data were processed

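The authors deposited raw counts per TempO-Seq detector probe, without normalisation, in 1 table. The submitters' processing notes name bcl2fastq 2.20.422, fastp 0.23.2, STAR 2.7.10b and DESeq2 1.38.0, and the genome build is not given in the sources used here. Counts without molecular identifiers are not independent molecules. A row that lacked values in most libraries was left out of 22069. The paper supplied with the series describes another experiment and gave no setting. The 9 genes, the pathway and marker lists and the tests were chosen with earlier results of these data known.

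Each chemical was fitted in R 4.3.3 with edgeR 4.0.16 (filterByExpr, TMM scaling, quasi-likelihood F test), C2 to C5 against C1 and a slope on log2 concentration, the latter given as the change from C1 to C5. The standard error is the absolute log2 change over the square root of F. P-values were adjusted over all features of a comparison, and a call needed an adjusted p under 0.05 and a fold of at least 1.5. The named pathway genes were NFE2L2, KEAP1 and BACH1 and, per list, up to 4 genes called in the same direction in the most chemicals, at least 4. A few of the genes these rules gave are not reported here. CPM used TMM-scaled library sizes, and log2 CPM for likeness a prior count of 2. Libraries with a mean correlation to their group mates under 0.9, the lowest of a group, were said to stand apart.

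The labels give replicate numbers as HepaRG batches, which pair the samples. Deviations from group means correlated with a median r of 0.0299 in 232 pairs of the same batch and -0.0122 in 464 pairs of different batches. Alternatives were the batch as a block, RLE factors, DESeq2 1.42.0, no filter, no minimum fold, probes summed, 1 model of all groups, and leaving out each batch, trichostatin A C1 replicate 3 or all libraries that stood apart (chosen after seeing the data, as was the test of batches at C1). On simulated counts the C5 test recovered 11% to 52% of 2-fold and 61% to 85% of 4-fold changes, with 1 to 15 false calls. Far fewer features were changed there than were called in the data of any chemical but trichostatin A. The adjustment over all features was therefore stricter, and recovery in the data may differ.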

Additional observations from a re-analysis of the deposited data

Results flagged for a closer look

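The change from C1 to C5 differed among the 8 chemicals by edgeR's quasi-likelihood F test in 8 of the 11 NRF2 target features, with adjusted p-values over all features. The values were 3.295e-17 for SRXN1_88916, 7.985e-12 for GCLC_22866, 8.471e-08 for GCLM_2615 and 1.651e-07 for GCLM_25908. They were 8.647e-05 for OSGIN1_4849, 0.009255 for HMOX1_3041, 0.01365 for NQO1_4668 and 0.03203 for NQO1_26473. The background share was 30.3%. The concentrations of the chemicals differ, so the test compares the ranges as tested and not the chemicals at 1 dose.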

How the results depend on the processing

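Every one of the 39 member calls at C5 remained with RLE factors, with no filter, with the replicate block and with DESeq2. Over all alternatives, 350 of 374 recomputed changes kept their direction and their call, 24 lost the call and 0 reversed. Of 301 recomputed counts 272 stayed within 1.5 times. In the paired analysis with the replicate block, panobinostat had 2 members called higher (1 without the block), since TXNRD1 passed (log2 change 0.60, adjusted p = 0.0328), and it also had 2 with no filter and without the libraries that stood apart. Of all features in panobinostat, 940 of 13104 were higher with the block, 1037 of 18944 with no filter and 1207 of 12999 without those libraries. At C4 the block gave 17 members called lower (15 without it). Members called lower in apicidin (1) were 0 with probes summed (1789 of all 11464 features), 0 in 1 model over all groups (1994 of all 15632) and 3 with no minimum fold. Those in mocetinostat (5) were 3 with probes summed, as the 2 probes of GCLM and of NQO1 were merged, and none of these genes lost its call. Members called higher were 1 in trichostatin A with no filter (0 as reported) and 2 in valproic acid with no minimum fold (1 as reported). The member in trichostatin A was TXN, with 1 C5 library far above its mates. Of all 19043 features in that setting 87 were called higher and 99 lower. At C2, 2 were higher and 2 lower without the libraries that stood apart, all in mocetinostat (0 as reported), and the same 4 were called without replicate 3. At C3 5 were higher in 1 model over all groups (8 as reported). Among the chemicals 8 features passed as reported, beside 4731 of all 15632. Within plate E 1 passed (430 of all 13643) and within plate H 7 (3475 of all 14844). Without trichostatin A 7 passed (3301 of all 15547) and with no filter 9 (4352 of all 21761).

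With each batch left out in turn, members called lower at C5 ranged from 0 to 1 in apicidin, 1 to 5 in mocetinostat, 1 to 4 in scriptaid, 2 to 4 in tacedinaline and 1 to 3 in valproic acid, and those called higher in scriptaid from 2 to 4. Calls over all features, of 12299 to 13235 tested, changed too. Those lower ranged from 1246 to 1705 in apicidin (1908 with all batches) and 1034 to 1711 in mocetinostat (2049). They ranged from 1073 to 2562 in scriptaid (2178), 2067 to 2342 in tacedinaline (2506) and 325 to 681 in valproic acid (807). Features called higher in scriptaid ranged from 443 to 2076 (1633). Over the chemicals C2 ranged from 0 to 2 in each direction, C3 from 5 to 7 higher and 2 to 5 lower and C4 from 6 to 11 lower (15 when only trichostatin A C1 replicate 3 was left out), and among the chemicals 5 to 8 features passed. Without replicate 2, 11 of the 39 calls were lost, without replicate 1, 6, and without replicate 3, 3. No call of SRXN1 or GCLC was lost in any of these alternatives. Low counts limit NQO1_4668 and SLC7A11, and the causes of the other shifts were not tested.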
